A study of Mus musculus with 13 samples.

Results

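Tbx3, Tbx15, Tbx18, Osr2 and Hlx are 5 transcription factor genes of the embryonic mesoderm, and they are 5 of the 13549 genes in the deposited RNA count table. They were picked by name, with earlier results of the same libraries in view, because their counts were high in Eed conditional knockout (cKO) libraries and low in controls. All of their differences between cKO and control cells are therefore descriptions. Where calls of a test are given for them, beside the shares over all genes, these support nothing. The table itself holds only genes with at least 1 count in every library and 10 or more counts in at least 4 libraries. None of the 5 genes reached 10 counts in more than 2 of the 4 control libraries, and each reached 10 in all 5 cKO libraries, so each is in the table only through its cKO counts, and that limit sets the direction of the difference.

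The cells were cultured from C57BL/6 mouse brain. Oligodendrocyte precursor cells (OPCs), the dividing glial cells that give rise to myelinating oligodendrocytes, were grown with the growth factors PDGF and NT-3. Immature oligodendrocytes (iOLs) were the same kind of culture on day 2 after the thyroid hormone T3 was added and PDGF was removed. Each stage was grown from control brains and from Eed cKO brains, which gave 2 control OPC, 3 Eed cKO OPC, 2 control iOL and 2 Eed cKO iOL libraries. Brains were of postnatal day 7 for control OPC replicate 1 and Eed cKO OPC replicates 1 and 2, and of day 6 for the other 6 libraries. The genotype entry reads the same for all samples, so groups were taken from the sample titles, and the Cre driver and the deleted part of Eed are not given in the sources used here. Whether replicates are separate animals is not stated either, so a p-value here measures only how far these samples spread.

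Eed is a protein of the Polycomb repressive complex PRC2, which methylates histone H3 at lysine 27 and holds developmental genes of other lineages silent. T-box factors bind DNA through a shared domain named after the Brachyury gene and specify mesodermal organs and limbs. Tbx3 is mainly a repressor, needed for limb, mammary gland and heart conduction system. Tbx15 and Tbx18 are close relatives: Tbx15 acts in skeletal precursors, muscle and fat, and Tbx18 in the sinus node, epicardium and ureter mesenchyme, and in the adult brain it marks pericytes and other mural cells of vessels. Osr2 is an odd-skipped zinc finger factor of palate, tooth and joint mesenchyme. Hlx is an H2.0-like homeobox factor of the mesenchyme around gut and liver and of some blood cells.

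In mm10 coordinates, by RefSeq's GRCm38 annotation, the genes lie on 5 chromosomes. Tbx3 spans chr5:119670534-119684724, Tbx15 chr3:99240348-99354260, Tbx18 chr9:87702800-87731260, Osr2 chr15:35296098-35303305 and Hlx chr1:184727143-184732493. Tbx3 overlaps the annotated long noncoding RNA gene Tbx3os1, and Tbx15 overlaps Gm46817 and Gm52611. The labels name both a stranded kit and an amplifying kit without saying which library had which, so reads of these overlapping pairs may not be told apart.

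The promoter table of RefSeq GRCm38.p6 holds Tbx18 and Hlx of the 5 genes. Their 250 bases before the start are shown because CpG-rich promoters are a known feature of Polycomb-silenced developmental genes and because both genes were lower in cKO iOLs than in cKO OPCs. They lie at chr9:87731261-87731510 and chr1:184732494-184732743, both on the minus strand, and capitals mark each CpG, a C followed by a G.
Tbx18: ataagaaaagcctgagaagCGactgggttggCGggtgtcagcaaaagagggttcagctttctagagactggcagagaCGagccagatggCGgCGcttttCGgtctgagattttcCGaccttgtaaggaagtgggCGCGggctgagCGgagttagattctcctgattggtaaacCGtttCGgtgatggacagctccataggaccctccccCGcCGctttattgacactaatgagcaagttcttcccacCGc
Hlx: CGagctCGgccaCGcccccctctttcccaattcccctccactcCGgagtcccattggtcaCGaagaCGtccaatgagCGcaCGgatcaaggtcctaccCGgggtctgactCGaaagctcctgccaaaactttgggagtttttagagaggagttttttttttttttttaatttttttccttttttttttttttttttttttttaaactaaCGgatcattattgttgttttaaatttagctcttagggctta
The Tbx18 window holds 15 CpGs and has a GC content of 54.0%, and the Hlx window holds 11 CpGs with a GC content of 41.6%. The median over 32851 promoter windows of the same length was 6 CpGs and 52.4% GC. As many CpGs as in the Tbx18 window were found in 27.3% of the windows, and as many as in the Hlx window in 35.6%. The T-box half-site AGGTGTGA, searched on both strands (as TCACACCT on the other), was in neither window and in 1.12% of all windows. The shorter core AGGTGT, which is part of the half-site, was also in neither window and in 11.8% of all.

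Total counts ran from 17417529 to 19680398 a library, and levels are given in CPM, counts scaled to the size of their library with edgeR's TMM factors. Eed was 19.3 ± 3.49 CPM (SD, n = 2) in control OPCs and 12.5 ± 0.749 CPM (SD, n = 3) in cKO OPCs, and 19.6 ± 2.27 and 13.4 ± 1.79 CPM (SD, n = 2 each) in control and cKO iOLs. Each cKO library had less Eed than the controls of its stage, without passing the test over all genes (edgeR quasi-likelihood test, adjusted p = 0.0847 and 0.0973), and counts over the whole gene do not measure the deleted part. The 4 lineage genes Olig1, Olig2, Sox10 and Nkx2-2 summed to between 1728 and 4339 CPM in all 9 libraries. Differentiating oligodendrocyte markers (13 of 14 measured) summed to 9743 and 9914 CPM in control iOLs but to 2423 and 3479 CPM in cKO iOLs, within the 1458 to 7417 CPM of OPCs, so the cKO iOLs carried less of the markers of their stage than control iOLs. Astrocyte markers (10 of 11 measured) summed to 3443 to 11692 CPM, and neuron markers (15 of 15) to 1310 to 2135 CPM. OPC libraries also differed with postnatal day. Eed cKO OPC replicates 1 and 2, both of day 7, differed by a chi-square of 7.67 per degree of freedom, against 47.3 and 47.4 for each with replicate 3 of day 6. Control OPC replicates 1 and 2, also of different days, differed by 106. Ratios that rest on OPCs are therefore also given within a day.

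Tbx18 had 2 and 1 counts in control OPC replicates 1 and 2, against 164, 190 and 110 counts in cKO OPC replicates 1 to 3. In iOLs it had 3 and 3 counts in control replicates 1 and 2, against 57 and 65 counts in cKO replicates 1 and 2. The cKO libraries were above all controls at both stages, and the day 6 cKO OPC library was the lowest of the 3. Mean levels were 0.0849 ± 0.0456 CPM in control OPCs, 8.27 ± 2.34 in cKO OPCs, 0.168 ± 0.00270 in control iOLs and 3.24 ± 0.286 in cKO iOLs (SD). The cKO level was 98.9-fold the control level in OPCs (exact 95% interval of counting error alone 33.6 to 482) and 19.2-fold in iOLs (8.58 to 53.4). On the log2 scale the fitted changes were 6.52 ± 0.49 (SE) and 4.21 ± 0.47. Such an SE is narrower than the counting interval where a group holds a handful of counts, as it does here. Within a day the OPC ratio was 81.7 on day 7 (22.4 to 677) and 108 on day 6 (19.0 to 4298).

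Osr2 showed the widest spread among the cKO OPC libraries. It had 4 and 4 counts in control OPCs, against 401 and 518 in cKO OPC replicates 1 and 2 and 119 in replicate 3. In iOLs it had 1 and 1 counts in controls, against 23 and 22 in cKO replicates 1 and 2. No cKO library overlapped the controls, but the day 6 cKO OPC library held far less Osr2 than its 2 day 7 companions. The astrocyte list summed to 3443 and 3623 CPM in those day 7 libraries, 8437 CPM in the day 6 library and 9802 and 11692 CPM in the cKO iOLs. Gfap alone made up 6115 and 7938 CPM of the cKO iOL sums, after 188, 187 and 500 CPM in cKO OPC replicates 1 to 3. From OPCs to iOLs in cKO cells 1 of 10 astrocyte markers was called higher and 3 lower, where 18.5% and 21.8% of all genes were. The part of astrocytes in the Osr2 levels was not tested. Mean levels were 0.222 ± 0.0168 CPM in control OPCs, 18.6 ± 11.2 in cKO OPCs, 0.0562 ± 0.000902 in control iOLs and 1.19 ± 0.0428 in cKO iOLs (SD). The ratio of cKO to control was 83.0 in OPCs (counting interval 42.0 to 193). Within a day it was 106 on day 7 (41.3 to 390) and 29.2 on day 6 (11.1 to 109). In iOLs, all of day 6, the ratio was 21.3 (5.55 to 181), with a log2 change of 4.25 ± 1.23 (SE) after 6.35 ± 0.78 in OPCs.

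Among the genes, Hlx had the smallest pooled spread within groups. It had 5 and 8 counts in control OPCs and 183, 144 and 176 in cKO OPC replicates 1 to 3. In control iOLs it had 11 and 13 counts, above both control OPC libraries, against 46 and 63 in cKO iOLs. The pooled SD of its log2 CPM within groups was 0.27, compared with 0.41 for Tbx15, 0.47 for Tbx18, 0.59 for Osr2 and 1.56 for Tbx3. This SD also takes in control groups with a handful of counts. In cKO OPCs and cKO iOLs the SD of Hlx was 12.3% and 21.6% of its mean, against 6.92% and 13.6% for Tbx15. The same percentage was higher than that of Hlx in cKO OPCs and lower in cKO iOLs for Tbx18, Osr2 and Tbx3. Mean levels were 0.357 ± 0.0907 CPM in control OPCs, 8.92 ± 1.10 in cKO OPCs, 0.673 ± 0.0686 in control iOLs and 2.89 ± 0.625 in cKO iOLs (SD). The cKO level was 24.8-fold the control level in OPCs (counting interval 14.3 to 46.8; log2 4.61 ± 0.32) and 4.29-fold in iOLs (2.74 to 6.98; log2 2.09 ± 0.31). Within a day the OPC ratio was 30.2 on day 7 (12.8 to 93.5) and 21.6 on day 6 (10.7 to 50.7). Both the higher control count and the lower cKO count of iOLs enter the smaller iOL ratio.

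Tbx15 had similar cKO counts at both stages. It had 4 and 3 counts in control OPCs and 107, 101 and 121 in cKO OPC replicates 1 to 3. In iOLs it had 2 and 4 counts in controls and 104 and 127 in cKO cells. The 5 cKO libraries covered 5.44 to 6.72 CPM, with the stages interleaved. Mean levels were 0.196 ± 0.0540 and 5.83 ± 0.403 CPM (SD) in control and cKO OPCs, and 0.168 ± 0.0767 and 6.12 ± 0.835 CPM in control and cKO iOLs. The ratio was 30.1 in OPCs (counting interval 14.4 to 75.4; log2 4.86 ± 0.35) and 36.4 in iOLs (16.5 to 100; log2 5.13 ± 0.37), with intervals that overlap over most of their length. Within a day the OPC ratio was 24.0 on day 7 (9.23 to 88.9) and 39.5 on day 6 (13.2 to 194).

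Tbx3 was the gene with an uneven control. It had 2 and 10 counts in control OPC replicates 1 and 2, and 128, 110 and 75 in cKO OPC replicates 1 to 3. In iOLs it had 3 counts in control replicate 1 but 42 in control replicate 2, against 75 and 101 in cKO replicates 1 and 2. The second control library thus lay well above the first and below both cKO libraries. Mean levels were 0.322 ± 0.289 and 5.58 ± 1.57 CPM (SD) in control and cKO OPCs, and 1.25 ± 1.53 and 4.67 ± 0.954 CPM in control and cKO iOLs. The ratio was 16.7 in OPCs (counting interval 9.42 to 32.6; log2 4.05 ± 0.86), with 54.9 on day 7 (15.0 to 456) and 7.35 on day 6 (3.79 to 16.0). In iOLs it was 3.69 (2.65 to 5.25; log2 1.89 ± 0.75).

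**Figure D1:**
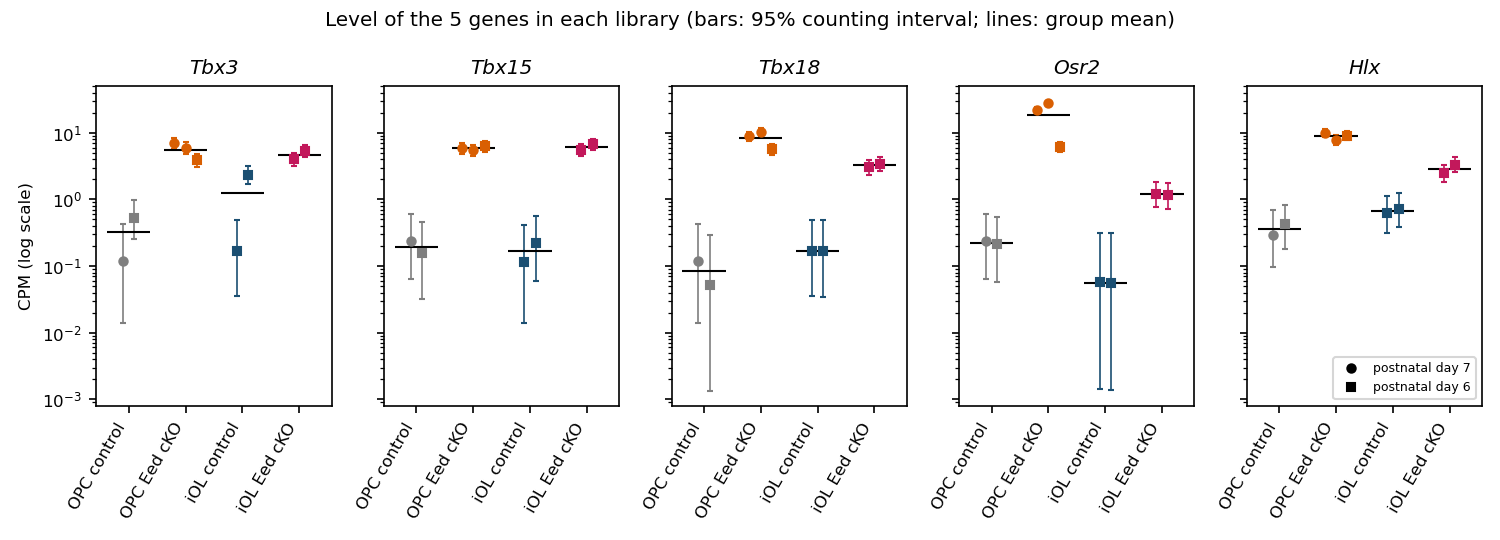
Level of each gene in every library, in CPM on a log axis, by group. Circles are day 7 and squares day 6 libraries, bars are 95% counting intervals and black lines group means. All cKO points lie above the controls of their stage, Osr2 in the day 6 cKO OPC library lies at 6.14 CPM below 21.8 and 27.9 in the day 7 libraries, and Tbx3 in control iOL replicate 2 lies at 2.33 CPM against 0.170 in replicate 1.

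All 5 genes had every cKO library above every control library in OPCs, as did 16.9% of all genes, and all 5 did so in iOLs, as did 33.6%. At an edgeR adjusted p under 0.05 over all genes, 5 of 5 were called higher in cKO OPCs, where 2.94% of all genes were, and 3 of 5 in cKO iOLs, where 7.08% were. Tbx3 and Osr2 were the genes not called in iOLs. Because the genes were chosen on this contrast, these counts describe the choice and support nothing. The call of Tbx3 in OPCs was lost without control OPC replicate 1, cKO OPC replicate 1 or 2, or either cKO iOL library, and that of Hlx in iOLs without control iOL replicate 1. Fewer expressing cells and less RNA per cell cannot be told apart in these bulk libraries.

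The genes were not chosen for their change over 2 days of differentiation, which was compared next. Its values in cKO cells, and the difference between the cKO and control changes, are built from the cKO counts by which the genes were chosen and entered the table. They are therefore not independent of the choice, and the shares over all genes beside them are given without reading anything from them. In control cells none of the 5 genes passed the test between iOLs and OPCs (edgeR adjusted p from 0.112 to 0.851), where 46.3% of all genes did. None was under an unadjusted p of 0.05 either, where 7276 of all 13549 genes were, and DESeq2 called 0 of 5. The control changes were 0.89 ± 0.41 for Hlx, 0.96 ± 0.83 for Tbx18, −0.20 ± 0.57 for Tbx15, −1.86 ± 1.68 for Osr2 and 1.91 ± 0.99 for Tbx3 (log2, SE). These rest on 1 to 13 counts a library outside Tbx3, a depth at which even a ratio for Tbx18 of 2.03 has a counting interval of 0.433 to 12.5. For Tbx3, 1 control library decides the value. Without control iOL replicate 1 the change was 2.80 with an edgeR adjusted p of 0.0129, and without control iOL replicate 2 it turned to −0.93.

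In Eed cKO cells, Osr2, Hlx and Tbx18 fell over the 2 days and the other 2 genes did not pass the test. That is 3 of 5 lower, where 21.8% of all genes were lower and 18.5% higher. Every cKO iOL library lay below every cKO OPC library for the same 3 genes, as for 34.7% of all genes. Osr2 fell by 3.95 ± 0.61 on the log2 scale (edgeR adjusted p = 0.000877), a level 15.4-fold lower in iOLs (counting interval 11.4 to 21.3). Against the day 6 cKO OPC library alone, which shares its postnatal day with the iOLs, it was 5.15-fold lower (3.62 to 7.42), and with postnatal day as a term the change was −2.45 with an adjusted p of 0.00023. The direction held in both, at a much smaller size.

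Hlx fell by 1.62 ± 0.24 (edgeR adjusted p = 0.000732), 3.09-fold on the pooled counts (2.50 to 3.83) and 3.14-fold within day 6 (2.46 to 4.03). Its size was the same with either set of OPC libraries. Tbx18 fell by 1.35 ± 0.29 (edgeR adjusted p = 0.00524), 2.54-fold (2.08 to 3.13), and 1.75-fold within day 6 (1.34 to 2.29). With postnatal day as a term its change was −0.80, and without cKO iOL replicate 1 its adjusted p was 0.0565. Tbx15 moved by 0.07 ± 0.22 (adjusted p = 0.823), a ratio of 1.05 with a counting interval of 0.883 to 1.25. Tbx3 moved by −0.26 ± 0.61 (adjusted p = 0.767), a ratio of 0.841 (0.695 to 1.01). These 2 values did not pass the test, which does not show that the levels are equal.

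**Figure D2:**
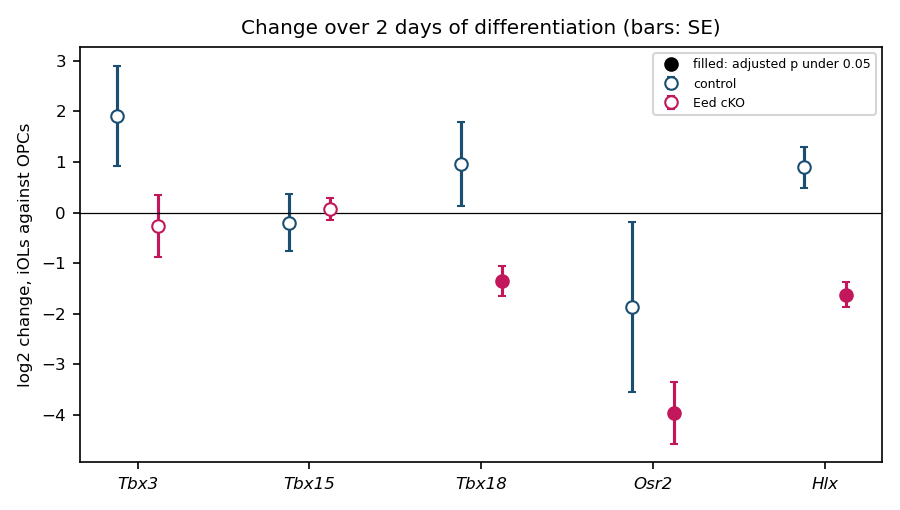
Log2 change of each gene from OPCs to iOLs in control and in Eed cKO cells, with the SE as bars. Filled points have an edgeR adjusted p under 0.05. Osr2 at −3.95, Hlx at −1.62 and Tbx18 at −1.35 in cKO cells are filled, while Tbx15 lies at 0.07 and no control point is filled.

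The 5 genes therefore stood in different proportions to each other in the 2 stages, which a scaling factor of a library cannot change. Among the summed counts of the 5 genes, Osr2 made up 40.8%, 48.7% and 19.8% in cKO OPC replicates 1 to 3, and 7.54% and 5.82% in cKO iOL replicates 1 and 2. Tbx15 made up 10.9%, 9.50% and 20.1% of the same sum in cKO OPCs, and 34.1% and 33.6% in cKO iOLs. Exact 95% binomial intervals for the day 6 libraries, which cover counting error alone, were 16.7% to 23.2% for Osr2 in cKO OPC replicate 3 against 4.84% to 11.1% and 3.68% to 8.68% in the cKO iOLs. For Tbx15 they were 17.0% to 23.6% against 28.8% to 39.7% and 28.8% to 38.6%. Tbx18 kept a share of 16.7% to 18.7% in all 5 cKO libraries. Shares are of counts, not per length, so they compare libraries and not genes.

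**Figure D3:**
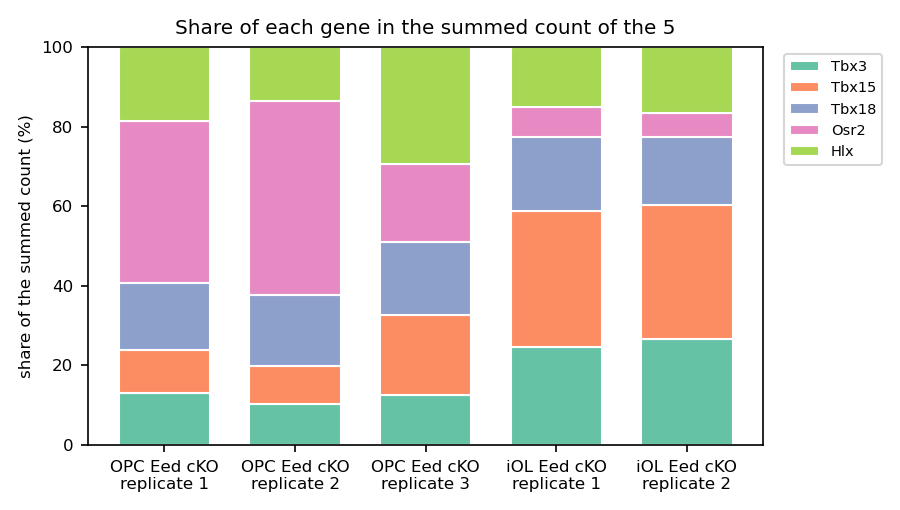
Share of each gene in the summed count of the 5 genes, in percent, in each Eed cKO library. The Osr2 part shrinks from 48.7% in cKO OPC replicate 2 to 5.82% in cKO iOL replicate 2, and the Tbx15 part is largest in the iOLs at 34.1% and 33.6%.

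Whether the stage change itself differed between cKO and control cells was tested as the difference of the 2 changes. Hlx passed, with −2.52 ± 0.47 on the log2 scale (edgeR adjusted p = 0.0369), from a change of 0.89 in controls and −1.62 in cKO cells. That is 1 of 5 genes, where 1.83% of all genes passed. The difference is built from the cKO counts by which the genes were chosen, so nothing is read from this count. The call rests on few libraries: it held without control OPC replicate 2 or cKO OPC replicate 3 and was lost without any 1 of the other 7, with adjusted p between 0.0589 and 0.166 there and a size between −2.76 and −2.29. Tbx18 had −2.31 ± 0.89 (adjusted p = 0.213), Tbx3 −2.16 ± 1.17 (0.353), Osr2 −2.09 ± 2.44 (0.664) and Tbx15 0.27 ± 0.61 (0.866). The fall of Osr2 in cKO cells was thus not shown to differ from its change in controls, which had 1 count in each iOL library.

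Tbx3 in control iOL replicate 2 was set beside markers of other cell types. Of 16 pericyte and smooth muscle markers 9 are in the table, and they summed to 375 CPM in control iOL replicate 1 and 503 CPM in replicate 2. Most of that was Acta2 and Tagln, with 197 and 131 CPM in replicate 1 and 262 and 179 CPM in replicate 2. Both rose from OPCs to iOLs in controls (log2 8.30 and 5.77), where 3 of the 9 were called higher and 4 lower (21% and 25.3% of all genes). The sum therefore follows Acta2 and Tagln more than the list. Of 18 fibroblast and meningeal markers 12 are in the table, with a sum of 146 CPM in replicate 1 and 232 CPM in replicate 2. Among the latter the collagen genes Col1a1 and Col3a1 had 6.64 and 2.61 CPM in replicate 1 and 31.6 and 15.6 CPM in replicate 2, and Postn, a matrix protein of fibroblasts, had 2.67 and 17.6 CPM. These 3 genes were chosen after their values were seen. Of each list 6 of 9 and 9 of 12 markers were higher in replicate 2, and Rgs5, Abcc9 and Mylk of the first and Fbln1, Fbln2 and Islr of the second were lower. Their part in the Tbx3 count was not tested.

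The same lists were compared between cKO and control cells. The 5 genes summed to 0.996 to 1.37 CPM in control OPCs and 31.0 to 57.2 CPM in cKO OPCs. The pericyte and smooth muscle list had 86.7 to 299 CPM in control OPCs and 89.5 to 218 CPM in cKO OPCs. Most of that was Notch3, with 64.0 and 251 CPM in control and 67.3 to 172 CPM in cKO OPCs. Of the 9 markers 0 passed the edgeR test there, and DESeq2 called 0. At an unadjusted p under 0.05 there was 1, where 3477 of all 13549 genes were. The fibroblast and meningeal list had 214 to 246 and 194 to 329 CPM, and 1 of 12 was called higher, Aldh1a2 of retinoic acid synthesis, also a gene of embryonic mesoderm (log2 4.27 ± 0.37, adjusted p = 0.000393). In iOLs, where the 5 genes summed to 1.136 to 3.50 CPM in controls and 16.2 to 19.99 CPM in cKO cells, 2 of 9 pericyte and smooth muscle markers were called higher, Rgs5 (log2 2.22 ± 0.31) and Mylk (1.26 ± 0.27), and 1 without any 1 of the 4 iOL libraries (7.08% of all genes were higher). The sums of that list were 375 to 503 CPM in control and 304 to 486 CPM in cKO iOLs, mostly of Acta2 and Tagln. There 4 of 12 fibroblast and meningeal markers were also called higher, Aldh1a2 (4.84 ± 0.57), Mgp (3.37 ± 0.65), Fbln1 (1.75 ± 0.26) and Pdpn (0.94 ± 0.22), with sums of 146 to 232 and 240 to 263 CPM. That count was 2 without any 1 of the 4 iOL libraries and up to 5 without others. Aldh1a2, at 0.0568 to 0.948 CPM in control libraries, and Mgp, at 0.158 to 1.17 CPM, met the table's limit only with their cKO counts. Their calls therefore support nothing. Of 16 endothelial markers 3 are in the table, and of 18 microglia and blood markers 4. In iOLs 1 of these 7 was called higher, Plvap (1.74 ± 0.38), a call lost without either control iOL library or cKO iOL replicate 1. The part of such cells in the levels of the 5 genes was not tested at either stage.

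For each gene the genes with the most similar pattern over the 9 libraries were found by Pearson's r of log2 CPM (prior count 2), as a description in which all points share the same 4 groups. Tbx18 was most like Foxf1 (r = 0.996), a forkhead gene of gut and lung mesenchyme, then Vax2os and Igf2bp1 (0.994 each). Tbx15 was most like Cdkn2a and Hmx1 (0.985 each), the first a gene of cell-cycle inhibitors and the second a homeobox gene, followed by Foxf1 (0.980). Hlx was most like Gad2 (0.990), which makes the transmitter GABA, then Tll2 (0.987). Osr2 was most like Nrip3 (0.983), the ephrin receptor gene Epha7 (0.981) and the Notch ligand gene Jag2 (0.979). Among the 5 genes r ran from 0.744 between Tbx3 and Osr2 to 0.975 between Tbx18 and Hlx.

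The genes most like Tbx3 were Cgnl1 (r = 0.984), of cell junctions, Meltf (0.983) and the kinase gene Map3k20 (0.974). All 3 shared its rise in control iOL replicate 2: Cgnl1 had 58 counts in replicate 1 and 132 in replicate 2, Meltf 7 and 20, and Map3k20 277 and 426. This library made up part of the pattern by which they were found.

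**Figure D4:**
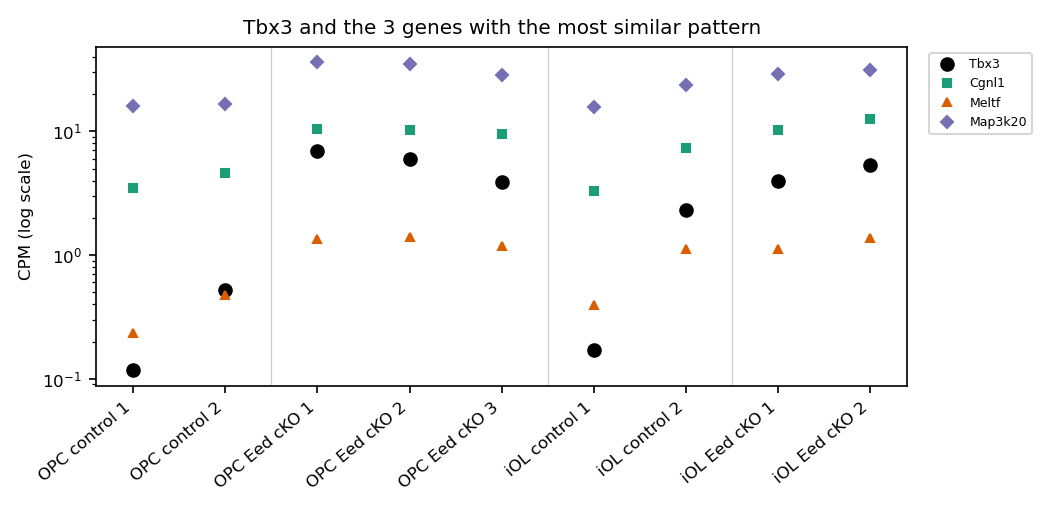
CPM on a log axis of Tbx3 and of Cgnl1, Meltf and Map3k20 in the 9 libraries, with grey lines between the groups. Control iOL replicate 2 lies above control iOL replicate 1 for all 4 genes, with Tbx3 at 2.33 against 0.170 CPM.

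The nearest gene in the table on each side of the 5 genes was compared next. Wars2 lies 19.1 kb from Tbx15, Vps13b 67.8 kb and Stk3 140 kb from Osr2, and Marc2 80.6 kb from Hlx, with the other 6 between 432 and 905 kb away. None of the 10 passed the edgeR test in cKO OPCs, with log2 changes from −0.63 to 0.57 and adjusted p from 0.0589 to 0.974. At an unadjusted p under 0.05 there were 2, Marc2 (−0.63 ± 0.15) and Med13l, 905 kb from Tbx3 (0.57 ± 0.16), and both were called by DESeq2. Under that unadjusted p were 3477 of all 13549 genes, so a count of 2 of 10 says nothing about the neighbours. Without control OPC replicate 2 or cKO OPC replicate 3, edgeR called both as well, and over all the libraries left out it called at most 3 of the 10 higher and 1 lower. In cKO iOLs none of the 10 passed the edgeR test, with changes from −0.24 to 0.41 and adjusted p from 0.310 to 0.998. At an unadjusted p under 0.05 there were 0, where 3142 of all 13549 genes were, and DESeq2 called 0. The table leaves out 1 protein-coding gene between Tbx3 and Rbm19, 432 kb away, and 1 between Hlx and Marc2. Genes of other types that it leaves out may also lie closer.

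**Figure D5:**
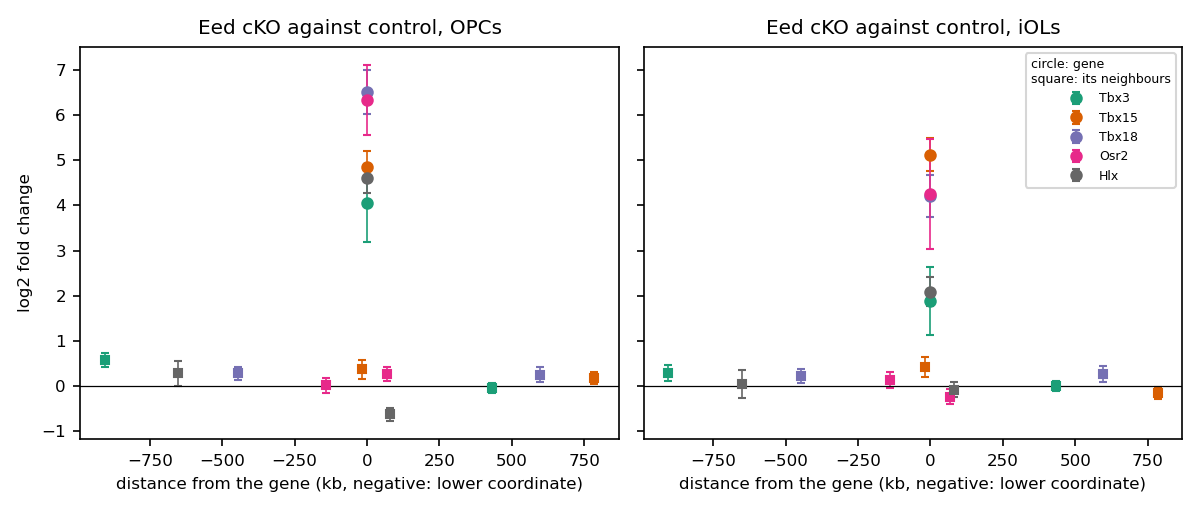
Log2 change of Eed cKO against control (bars, SE) for each of the 5 genes, drawn at distance 0, and for its nearest genes in the table, drawn at their distance in kb, in OPCs and in iOLs. In OPCs the neighbours lie between −0.63 and 0.57 and the 5 genes between 4.05 and 6.52.

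Of the T-box family, 7 of 18 listed symbols are in the table, the 3 described above and Tbx2, Tbx6, Tbr1 and Mga. Tbx2, the repressor most closely related to Tbx3, had 47 and 7 counts in control OPCs, 82, 73 and 61 in cKO OPCs, 22 and 32 in control iOLs and 145 and 138 in cKO iOLs. It was higher in cKO iOLs (log2 2.30 ± 0.60, edgeR adjusted p = 0.0401), a call kept without either control OPC library and lost without any 1 of the other 7, with adjusted p up to 0.257. In OPCs its change was 1.32 ± 0.57 (adjusted p = 0.188), and control replicate 1 came near the cKO counts. In cKO OPCs none of the 4 passed with edgeR, but 3 were higher at an unadjusted p under 0.05. Under that unadjusted p were 3477 of all 13549 genes, in either direction. DESeq2, which called more genes than edgeR over the whole table, called 2 of the 4. They were Tbr1 (edgeR log2 1.88 ± 0.50), a factor of cortical neurons, and Mga (0.75 ± 0.17), a widely expressed partner of Max. Tbx6, of the paraxial mesoderm, had 34 and 23 counts in control OPCs and 86, 78 and 20 in cKO OPCs, so its groups overlapped. Over differentiation in cKO cells Tbx6 fell by 2.04 ± 0.61 (adjusted p = 0.0252) and Tbr1 by 1.66 ± 0.48 (0.0220), and both calls were lost without cKO OPC replicate 1 or 2 or either cKO iOL library. Of the 2 odd-skipped symbols listed, 1 is in the table, Osr2, so Osr1 could not be compared.

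Of 73 further mesodermal transcription factors, a list written with earlier results of these data known, 30 are in the table. In cKO OPCs 13 of the 30 were higher (2.94% of all genes) and 0 lower (0.303% of all genes), 17 did not pass, and the median log2 change was 1.35 against −0.02 over all genes. The largest were Foxf1 (7.48 ± 0.38), Pax1 of the sclerotome (4.71 ± 0.49), Foxd2 (4.53 ± 0.68) and Ebf3 (3.45 ± 0.27), with edgeR adjusted p between 4.1e-05 and 0.00794. The number higher was 6 without cKO OPC replicate 2 or control OPC replicate 1, 7 without cKO OPC replicate 1, and up to 17 without others. In cKO iOLs 13 were higher (7.08% of all genes) and 1 lower (3.51%), Barx2 (−1.99 ± 0.55). The higher ones were led by Foxf1 (5.77 ± 0.39), Ebf3 (4.61 ± 0.34), Shox2 (3.44 ± 0.53) and Ebf1 (2.87 ± 0.29). Without 1 of the 4 iOL libraries the number higher was 5 to 8, and without others up to 18. These genes entered the table under the same limit on low counts. Foxf1 had 1 or 2 counts in each control library against 102 to 325 in cKO libraries. It is in the table only through its cKO counts, which sets its direction at both stages. Pax1, at 0.105 to 0.682 CPM in control libraries, and Foxd2, at 0.0586 to 1.53 CPM, were also low there. Nothing is therefore read from the numbers higher or from their adjusted p.

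From OPCs to iOLs in cKO cells 15 of these 30 were lower and 5 higher, where 21.8% and 18.5% of all genes were. Heyl (−2.97), Ebf2 (−2.47) and Foxp2 (−2.46) fell and Snai1 (2.18), of epithelial to mesenchymal transition, rose. In control cells they moved the same way, by −3.22, −2.02, −3.90 and 3.18, where only Ebf2 did not pass the test. None of these genes passed the test of the difference of changes (edgeR adjusted p from 0.206 to 0.852). Of the 30, 11 were lower and 3 higher in control cells, where 25.3% and 21% of all genes were, and 7 were lower without control iOL replicate 2. The number lower in cKO cells ran from 8, without cKO iOL replicate 2, to 16, and the number higher from 2 to 5.

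Of 16 genes known as targets of Tbx2 or Tbx3, 12 are in the table, and 3 were higher in cKO OPCs (2.94% of all genes) and 0 lower (0.303%). They were Cdkn2a (log2 6.04 ± 0.38), which T-box repressors are known to hold down, the Wnt effector gene Lef1 (2.89 ± 0.21) and the cell-cycle inhibitor gene Cdkn1a (2.65 ± 0.27), with edgeR adjusted p between 8.9e-05 and 0.000967. Cdkn2a is in the table only through its cKO counts of 228 to 405, against 1 to 9 in control libraries. That limit sets its direction at both stages, so its calls and its place in these counts support nothing. In cKO iOLs 3 of 12 were higher, Cdkn2a (7.68 ± 0.50), Lef1 (3.30 ± 0.27) and Mycn (1.04), and 1 lower, Bmp4 (−1.58), where 7.08% and 3.51% of all genes were. Leaving out 1 library gave 3 to 5 higher in OPCs, and 2 to 5 higher and 0 to 2 lower in iOLs. The call of Bmp4 was lost without either control iOL library or cKO iOL replicate 1. The co-repressors through which T-box and H2.0-like factors act were measured for 12 of 13 listed genes, and 2 were higher in cKO OPCs, Tle6 (1.24 ± 0.26) and Tle2 (0.88 ± 0.12), both of the Groucho family, where 2.94% of all genes were higher. Leaving out 1 library gave 1 to 5 higher, with 5 higher and 3 lower without control OPC replicate 2. In cKO iOLs the same 2 genes were lower, by −1.56 ± 0.30 and −1.28 ± 0.13, with Tle4 also lower (−0.84) and Tle3 (1.06) and Tle1 (0.80) higher, where 3.51% and 7.08% of all genes were. Leaving out 1 library gave 1 to 3 lower, with 1 without cKO iOL replicate 1, and 1 to 2 higher. The difference of the 2 stage changes passed the test for 2 of the 12 as lower and 1 as higher, where 1.83% of all genes passed in either direction. Lower were Tle6 and Tle2 (edgeR adjusted p = 0.0160 and 0.00644), and higher was Tle3 (log2 0.97 ± 0.16, edgeR adjusted p = 0.0285). Leaving out 1 library gave 1 to 5 lower and 0 to 1 higher.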

How the data were processed

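Per the submitters' processing notes, which do not give roles, the tools included cutadapt 1.14, STAR 2.6.0 and featureCounts of Subread 1.6.2, with the build mm10. The authors deposited whole-number counts of reads per gene, in which a second header line was left out here. The software was edgeR 4.0.16 and DESeq2 1.42.0, run under R 4.3.3. All 9 RNA libraries were fitted with 4 group means and TMM factors in edgeR's quasi-likelihood test, with a minimum count of 10 that removed 0 genes. Benjamini-Hochberg adjustment ran over 13549 genes at a threshold of 0.05, with 5 residual degrees of freedom. Values after ± are SE of log2 changes unless marked SD. Ratios are of counts pooled over a group, divided by TMM-scaled library sizes, with exact 95% binomial intervals, which cover counting error alone. The fit was tested on simulated data. Library totals, 17417529 to 19680398, limit the precision of genes with few counts.

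The 5 genes, the gene lists and the comparisons were chosen with earlier results of these data known. Named are the 5 genes, the 3 most similar genes to each (a part of which is not reported here), the T-box and odd-skipped families, the nearest measured genes, Eed and up to 4 genes of each other list. Where fewer than 4 passed, only those are given values. Of the table's symbols 99.8% matched RefSeq. Alternatives were DESeq2, other size factors, other filters, a fit of the compared groups alone, a replicate block, a term for postnatal day, and each library left out in turn. Ratios within a postnatal day were added after seeing the data. The 4 chromatin immunoprecipitation samples were not analysed here. No 2 replicates agreed within sampling noise (chi-square per degree of freedom 6.48 to 106).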

Additional observations from a re-analysis of the deposited data

Results flagged for a closer look

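The change of Hlx from OPCs to iOLs differed between Eed cKO and control cells by −2.52 on the log2 scale (edgeR adjusted p = 0.0369), from 0.89 ± 0.41 (SE) in controls to −1.62 ± 0.24 in cKO cells. The test was of the difference itself. Hlx counts were 5 and 8 in control OPCs, 11 and 13 in control iOLs, 183, 144 and 176 in cKO OPCs and 46 and 63 in cKO iOLs. Hlx was chosen for its high counts in cKO libraries, so the sign of the difference is not independent of that choice.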

How the results depend on the processing

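Higher or lower in cKO OPCs were 440 genes, against 1006 by DESeq2, 1941 with the replicate block, 1382 with postnatal day as a term and 190 with only the groups compared (164 to 3935 over the libraries left out). In cKO iOLs there were 1434, against 2680 with postnatal day and 3699 with only the groups compared (349 to 2236). The difference of changes called 248, against 823 by DESeq2, 1049 with the replicate block and 1202 with postnatal day (2 to 2156). From OPCs to iOLs, leaving out libraries gave 4057 to 7236 genes in controls, against 6270, and 3080 to 6883 in cKO cells, against 5461. The cause was not tested.

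Values of Tbx3 and Tbx15 changed sign. Tbx3 from OPCs to iOLs in cKO cells was 0.035 with postnatal day as a term and 0.27 within day 6. Tbx15 within day 6 was 0.093 in controls and −0.028 in cKO cells. Also within day 6, Tbx18 was 1.68 in controls and −0.81 in cKO cells, and Osr2 was −2.36 in cKO cells. Leaving out libraries gave ranges of −0.93 to 3.35 for Tbx3 and −0.74 to 0.19 for Tbx15 in controls, and of −0.075 to 0.20 for Tbx15 and −1.56 to −1.18 for Tbx18 in cKO cells. For the difference of changes they were −3.61 to 0.67 for Tbx3, −0.11 to 0.81 for Tbx15 and −2.81 to −2.29 for Hlx. In cKO cells Osr2, Hlx and Tbx18 were lower in iOLs under all 16 alternatives with a test, and the call held under 16, 16 and 15 of them, lost for Tbx18 without cKO iOL replicate 1.

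Same-numbered control and cKO samples had deviations correlated at 0.313 and −0.352 in OPCs, where replicate 2 is of a different postnatal day in control and cKO cells. With 2 control OPC libraries these values also have mirrors of the other sign. They show no pairing by number there and cannot decide it. Control and cKO OPC samples of the same postnatal day had 0.313, 0.352 and 0.430. In iOLs same-numbered samples had 0.239 and the others −0.239, values that mirror each other with 2 libraries a group. Pairing in iOLs cannot be decided from them. With the replicate block, Hlx differed by −2.51 (edgeR adjusted p = 0.0387), and Osr2 and Tbx18 in cKO cells by −4.36 and −1.56. With only the groups compared, the control stage change could not be fitted for 4 genes, which the filter removed.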
